A study of Mus musculus with 6 samples.

Results

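The creatine kinase and adenine nucleotide shuttle of the heart was followed through 10 genes, chosen by gene symbol from the 22063 genes of the deposited table. They were the creatine kinase genes Ckm, Ckb and Ckmt2, the creatine transporter gene Slc6a8, the adenine nucleotide translocase genes Slc25a4 and Slc25a5, the voltage-dependent anion channel genes Vdac1, Vdac2 and Vdac3, and the adenylate kinase gene Ak1. RNA came from cardiomyocytes of wild-type mice, isolated from the heart by the method of Langendorff, in which the heart is perfused through its vessels. One group of mice was injected every day with α-ketoglutarate (AKG), a tricarboxylic acid cycle metabolite, in a dose of 300 mg per kg body weight, and the other with phosphate-buffered saline (Control), both for 2 weeks. Each group had 3 libraries. The labels gave postnatal day 21 both for the treated animals and for the isolation of the cells, and did not give sex, strain, or whether a library held cells of 1 mouse or of several. The p-values therefore measure the spread between these libraries, which may be partly technical. The study asked which pathways accompany a treatment that it links to proliferation of cardiomyocytes.

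Heart muscle makes most of its ATP in mitochondria and spends it at the myofibrils and ion pumps. Translocases of the inner membrane exchange ATP of the matrix for ADP, mitochondrial creatine kinase passes the phosphate from ATP to creatine, and VDAC pores let nucleotides and metabolites cross the outer membrane. Cytosolic creatine kinase then rebuilds ATP from phosphocreatine where it is used. Creatine itself is made mainly outside the heart and enters through the Slc6a8 transporter, and adenylate kinase interconverts ATP, ADP and AMP as a parallel route. Ckm and Ckmt2 are the muscle and the sarcomeric mitochondrial creatine kinases, and Ckb is the brain-type cytosolic form that the fetal heart and many other cell types use. Slc25a4 (ANT1) is the translocase of heart and skeletal muscle, and Slc25a5 (ANT2) is the form of dividing and non-muscle cells.

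The promoters of the 3 creatine kinase and the 2 translocase genes are shown because these genes are paired by function while the size of their difference between the groups was unequal. Each sequence holds the 250 bases before the transcription start, 5′ to 3′ on the strand of the gene, from RefSeq (GRCm38.p6). The windows lie at chr7:19410844-19411093 on the plus strand for Ckm, chr12:111672339-111672588 on the minus strand for Ckb, chr13:91876886-91877135 on the minus strand for Ckmt2, chr8:46211063-46211312 on the minus strand for Slc25a4 and chrX:36795347-36795596 on the plus strand for Slc25a5. Capitals mark matches on either strand to CANNTG, the E-box bound by basic helix-loop-helix factors, or to TATAA, the core of a TATA box, and matches of the 2 motifs did not overlap here.
Ckm: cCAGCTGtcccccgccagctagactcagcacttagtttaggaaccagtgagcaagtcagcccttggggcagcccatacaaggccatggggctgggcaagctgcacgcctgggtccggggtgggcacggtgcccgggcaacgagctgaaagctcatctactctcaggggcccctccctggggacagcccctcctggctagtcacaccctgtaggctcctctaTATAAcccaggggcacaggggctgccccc
Ckb: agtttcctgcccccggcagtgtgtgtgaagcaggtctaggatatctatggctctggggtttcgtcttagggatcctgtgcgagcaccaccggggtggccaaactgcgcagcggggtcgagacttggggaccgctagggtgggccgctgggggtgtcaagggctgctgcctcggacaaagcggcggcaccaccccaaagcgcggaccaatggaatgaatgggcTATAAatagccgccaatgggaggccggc
Ckmt2: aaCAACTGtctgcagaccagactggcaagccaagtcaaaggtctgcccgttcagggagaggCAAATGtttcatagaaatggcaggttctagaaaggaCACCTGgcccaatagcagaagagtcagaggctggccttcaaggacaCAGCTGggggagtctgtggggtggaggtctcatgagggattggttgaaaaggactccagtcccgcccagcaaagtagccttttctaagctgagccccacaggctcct
Slc25a4: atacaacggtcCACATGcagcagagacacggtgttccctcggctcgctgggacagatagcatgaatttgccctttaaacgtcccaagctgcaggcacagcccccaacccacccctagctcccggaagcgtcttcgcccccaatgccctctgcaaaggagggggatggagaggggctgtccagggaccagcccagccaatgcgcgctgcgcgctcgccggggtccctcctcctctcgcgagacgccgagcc
Slc25a5: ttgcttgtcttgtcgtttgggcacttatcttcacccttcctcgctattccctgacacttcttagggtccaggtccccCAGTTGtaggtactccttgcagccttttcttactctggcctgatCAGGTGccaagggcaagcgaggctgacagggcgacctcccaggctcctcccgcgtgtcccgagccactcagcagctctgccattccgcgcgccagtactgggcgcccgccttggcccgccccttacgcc
Ckmt2 held 4 E-box matches in this window and no TATAA, Ckm held 1 of each, and Ckb held 1 TATAA and no E-box match. Slc25a4 held 1 E-box match and Slc25a5 held 2, neither with a TATAA before the start. An E-box match occurred in 66.2% of all 32851 promoter windows of this length and a TATAA in 22.8%, so E-box matches are common. The table had windows for 7 of the 10 genes, and Slc6a8, Vdac2 and Vdac3 were not among them. AAGGTCA, the half-site of estrogen-related receptors, was found in none of the 5 windows printed. Among all 11 windows of the 7 genes it was found in 2, 1 of Ak1 and 1 of Vdac1, and among all windows in 4.08%.

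Transcripts of the shuttle were lower after AKG at most of its steps, and unequally so. Of the 10 genes, 8 fell and 0 rose, while Slc6a8 and Vdac1 did not pass the threshold (edgeR quasi-likelihood test with Benjamini-Hochberg adjustment, threshold 0.05). Among all 13117 tested genes 25.2% were called lower and 25.0% higher by the same rule, 50.2% in all. The largest fall was that of Ckmt2 (log2 fold change -2.03), and Ckb, Ak1, Slc25a4, Ckm, Vdac3, Slc25a5 and Vdac2 followed in that order. The median log2 fold change of the 10 genes was -0.66, beside 0.0029 for all tested genes. All 10 passed the filter on low counts, with 771 to 59754 counts per gene and library. Levels below are in CPM, the counts of a gene relative to the size of its library, with TMM scaling, a trimmed-mean method that sets the bulk of genes level between libraries, so each fall is relative to the bulk of genes. In RNA of a cell preparation, fewer cells of a type and less RNA per cell cannot be told apart.

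**Figure D1:**
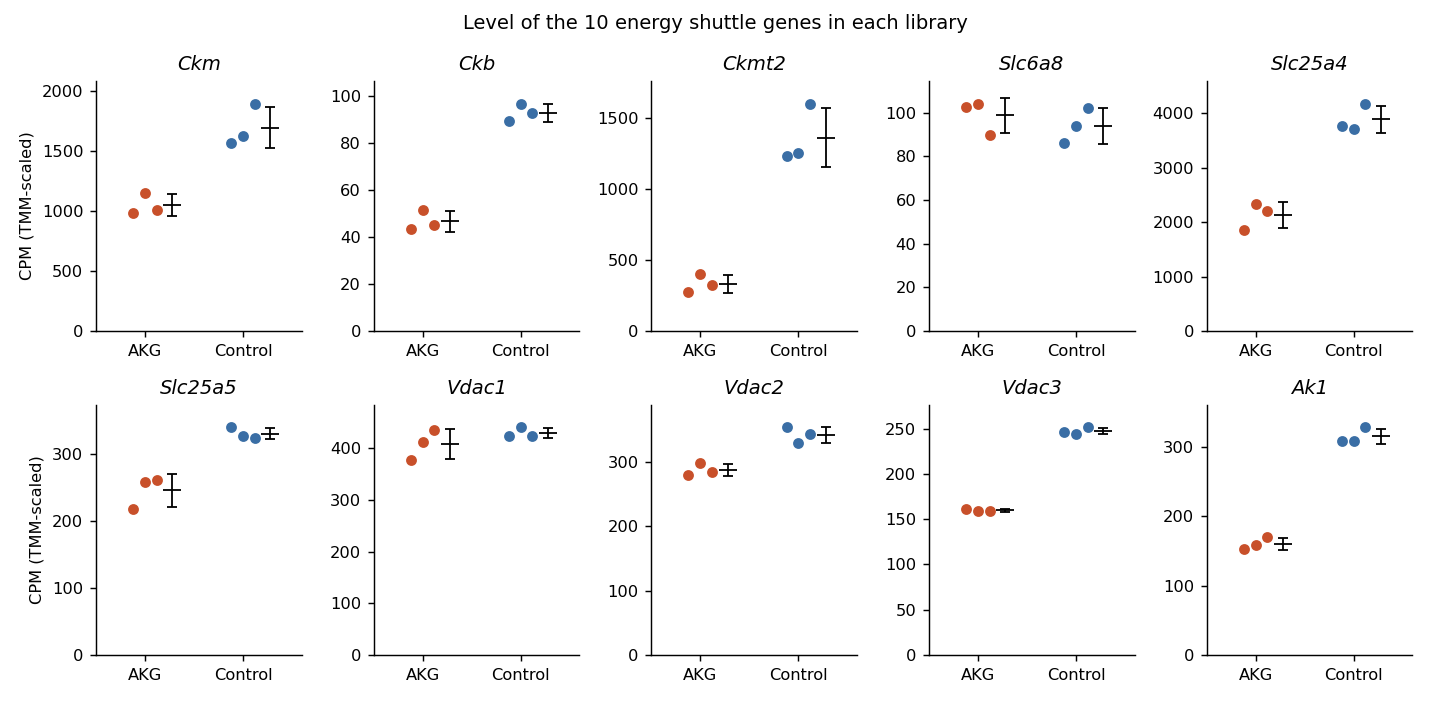
Each panel plots 1 gene, with its level in CPM on a linear axis from 0 and 1 point per library, AKG in red and Control in blue; the bar is the mean ± SD over 3 libraries. For Ckmt2 the AKG libraries lay between 273 and 402 CPM and the Control libraries between 1230.5 and 1598.5 CPM, and the groups overlapped for Slc6a8 and Vdac1.

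The libraries held 14402876 to 17797368 counts. All 8 heart muscle cell markers listed were detected, and their summed level was 28820 to 31550 CPM in AKG and 58500 to 63580 CPM in Control, with 6 of 8 lower and 0 higher. Myh6, the adult myosin heavy chain gene, stood at 10434, 13039 and 13807 CPM in AKG and at 27202, 27028 and 28998 CPM in Control. Pln and Mybpc3 were the 2 that did not pass, and Pln, the phospholamban gene, named after its values were seen, stood at 3316, 3228 and 3104 CPM in AKG and at 3322, 3205 and 3186 CPM in Control. Of 10 smooth muscle and pericyte markers 6 were lower and 1 higher, with sums of 1412 to 1609 CPM in AKG and 2328 to 2549 CPM in Control. Macrophage markers summed to 76.4 to 109 CPM in AKG and 121 to 184 CPM in Control, with 5 of 10 lower and 0 higher. Fibroblast and endothelial sums overlapped between the groups, at 2927 to 3903 and 1722 to 2042 CPM in AKG and at 2954 to 3767 and 1642 to 1788 CPM in Control. Fibroblast markers were lower for 4 of 10 and higher for 3, and endothelial markers were lower for 2 of 10 and higher for 3. The 6 atrial markers summed to 858, 461 and 939.6 CPM in AKG 1, 2 and 3 and to 92.1 to 151 CPM in Control, with 1 of 4 tested called higher. Nppa, the natriuretic peptide gene that the ventricle also uses under load, made most of each sum, at 499.6, 453.9 and 720 CPM in AKG and 139, 135 and 85.7 CPM in Control. The other 5 atrial markers were at 5.59 CPM or less in AKG 2. Neutrophil markers summed to 6.18 to 13.0 CPM in AKG and to at most 1.63 CPM in Control, with all 4 tested of 8 higher. Schwann and neural markers summed to 7.59 to 8.21 CPM in AKG and at least 10.3 CPM in Control, and erythroid markers to 1464 to 2119 CPM in AKG and 1387 to 1957 CPM in Control. Skeletal muscle markers summed to 44.4 to 84.1 CPM in AKG and 108 to 177 CPM in Control. Nearly all of each sum was Acta1, named after its values were seen, at 42.8, 78.8 and 82.0 CPM in AKG and 103.9, 127.4 and 170.9 CPM in Control. Acta1 did not pass the threshold (edgeR quasi-likelihood adjusted p = 0.0718). Every other gene of that list was at 4.56 CPM or less, with Myh4 at 0 in every library. A fit was also run with AKG 2, the AKG library lowest in the atrial markers other than Nppa, as the only AKG library. Against the 3 Control libraries the median log2 fold change was then -0.593 for the shuttle genes and -0.00593 for all tested genes. By gene it was -1.75 for Ckmt2, -0.99 for Ak1, -0.84 for Ckb, -0.73 for Slc25a4, -0.64 for Vdac3 and -0.55 for Ckm. Slc25a5, Vdac2, Vdac1 and Slc6a8 had -0.35, -0.19, -0.05 and 0.15. That fit assumes that the lone library varies like the others. Without Control 1, 7 shuttle genes fell, beside 2845 lower and 2751 higher of 13315 tested genes. Without any other single library 8 fell, beside 2856 to 3243 lower and 2798 to 3296 higher of 13296 to 13323 tested genes. The part of the marker transcripts, the atrial ones included, in the differences of the shuttle genes was not tested.

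Ckmt2, the mitochondrial kinase that charges creatine with phosphate, stood at 273, 402 and 323 CPM in AKG and at 1230.5, 1251.6 and 1598.5 CPM in Control. The highest AKG library, AKG 2, lay far below the lowest Control library. The mean was 333 ± 65.3 CPM in AKG and 1360.2 ± 207 CPM in Control (SD, n = 3 each), a 4.09-fold lower level (log2 fold change -2.03, SE 0.155, edgeR quasi-likelihood adjusted p = 3.59e-06). Of all tested genes only 120, or 0.915%, had a lower log2 fold change than Ckmt2. It was also the most variable of the 10 genes between libraries of a group, with a coefficient of variation of 19.6% in AKG and 15.2% in Control.

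Ckm, the cytosolic kinase of muscle that rebuilds ATP at the M-band and the calcium pumps, stood at 985, 1155 and 1013 CPM in AKG and at 1571, 1627 and 1897 CPM in Control. The groups did not overlap, and AKG 2 was again the highest of its group and Control 3 the highest of the other. The fall was 1.62-fold (log2 fold change -0.69, SE 0.102, edgeR quasi-likelihood adjusted p = 8.37e-05). CPM groups did not overlap for 8 of the 10 shuttle genes, and for 59.2% of all tested genes, 29.9% with AKG lower and 29.4% with AKG higher.

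Ckb, the brain-type kinase, was far below the muscle forms in FPKM, a value per length of transcript. In CPM it stood at 43.3, 51.8 and 45.2 CPM in AKG and at 89.4, 96.9 and 92.9 CPM in Control, with no overlap. The level was 1.99-fold lower after AKG (log2 fold change -0.99, SE 0.082, edgeR quasi-likelihood adjusted p = 5.7e-07). The brain-type isoform thus fell along with the muscle isoform, while Myh7, the fetal myosin heavy chain gene, rose and stood at 1959, 1717.5 and 1444 CPM in AKG and at 19.1, 20.6 and 23.3 CPM in Control. Ckb is also made by smooth muscle and neural cells, whose marker sums given above were lower in AKG as well. The reading frames of Ckm and Ckb were 76.4% identical, and their longest identical stretch was 20 bases, while those of Ckm and Ckmt2 were 68.2% identical (GENCODE M21 transcripts).

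Slc6a8, which carries creatine across the cell membrane, did not pass the threshold. It stood at 102, 104 and 89.6 CPM in AKG and at 86.0, 93.9 and 102 CPM in Control. The ranges overlapped almost completely, and the log2 fold change was 0.07 with a 95% interval of -0.11 to 0.25 (edgeR quasi-likelihood adjusted p = 0.518). Slc6a8 and Slc25a5 lie on the X chromosome, and sex was not balanced between the libraries. Y-linked transcripts summed to 89.2, 50.4 and 39.0 CPM in AKG 1, 2 and 3 and to 168, 0.311 and 176 CPM in Control 1, 2 and 3. In CPM, Control 2, the library nearly without Y-linked transcripts, lay between the other 2 Control libraries for both X-linked genes. In FPKM it was the highest Control library for both. Slc6a8 stood at 24.3, 27.8 and 27.7 FPKM in Control 1, 2 and 3, and Slc25a5 at 228, 238 and 218 FPKM. The part of sex in the values of these genes was not tested further. The genes of creatine synthesis stood at a few CPM. Gamt, the enzyme of the last step, fell to 3.90 ± 0.547 CPM in AKG, against 6.36 ± 0.584 CPM in Control (edgeR quasi-likelihood adjusted p = 0.00626). Gatm, the enzyme of the first step, had 2.70 ± 0.798 CPM in AKG and 3.68 ± 0.263 CPM in Control (0.161 by the same test). Ckmt1, the ubiquitous mitochondrial kinase, had too few counts to be tested.

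Slc25a4, the muscle translocase, was the most abundant of the 10 genes by FPKM. In CPM it stood at 1859, 2331 and 2212 CPM in AKG and at 3772, 3712 and 4173 CPM in Control, with AKG 1 the lowest library and no overlap. The level was 1.82-fold lower after AKG (log2 fold change -0.86, SE 0.108, edgeR quasi-likelihood adjusted p = 2.1e-05). Slc25a5, the translocase of dividing cells, stood at 217, 259 and 261 CPM in AKG and at 339, 326 and 324 CPM in Control. It fell less, by 1.34-fold (log2 fold change -0.43, SE 0.0866, edgeR quasi-likelihood adjusted p = 0.00106). The Control values of Slc25a5 lay close together, with a coefficient of variation of 2.5%, while AKG 1 lay below the other AKG libraries. The 2 reading frames were 77.5% identical with a longest identical stretch of 20 bases.

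The 3 VDAC genes, which encode the main pores of the outer mitochondrial membrane, differed from each other in their response. Vdac3 stood at 161, 158.6 and 159.6 CPM in AKG and at 246, 245 and 251 CPM in Control. These values were the tightest of all 10 genes, with a coefficient of variation of 0.788% in AKG and 1.42% in Control, and the fall was 1.55-fold (log2 fold change -0.63, SE 0.0708, edgeR quasi-likelihood adjusted p = 8.23e-06). Vdac2, which is also known to bind the cell death factor Bak1, stood at 280.3, 298 and 285 CPM in AKG and at 354, 329.5 and 343 CPM in Control. Its groups did not overlap but the fall was only 1.19-fold (log2 fold change -0.25, edgeR quasi-likelihood adjusted p = 0.0137), and it did not pass without Control 1 (adjusted p = 0.0653) or with AKG 2 as the only AKG library (adjusted p = 0.101). Vdac1, the most abundant of the 3 by FPKM, stood at 377, 413 and 435 CPM in AKG and at 425, 440.5 and 423 CPM in Control. AKG 3 lay among the Control libraries and AKG 1 and 2 below them, and the log2 fold change was -0.07 with a 95% interval of -0.25 to 0.10 (edgeR quasi-likelihood adjusted p = 0.484). The reading frames of the VDAC genes were 67.5% to 72.7% identical in pairs, with no identical stretch over 17 bases.

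**Figure D2:**
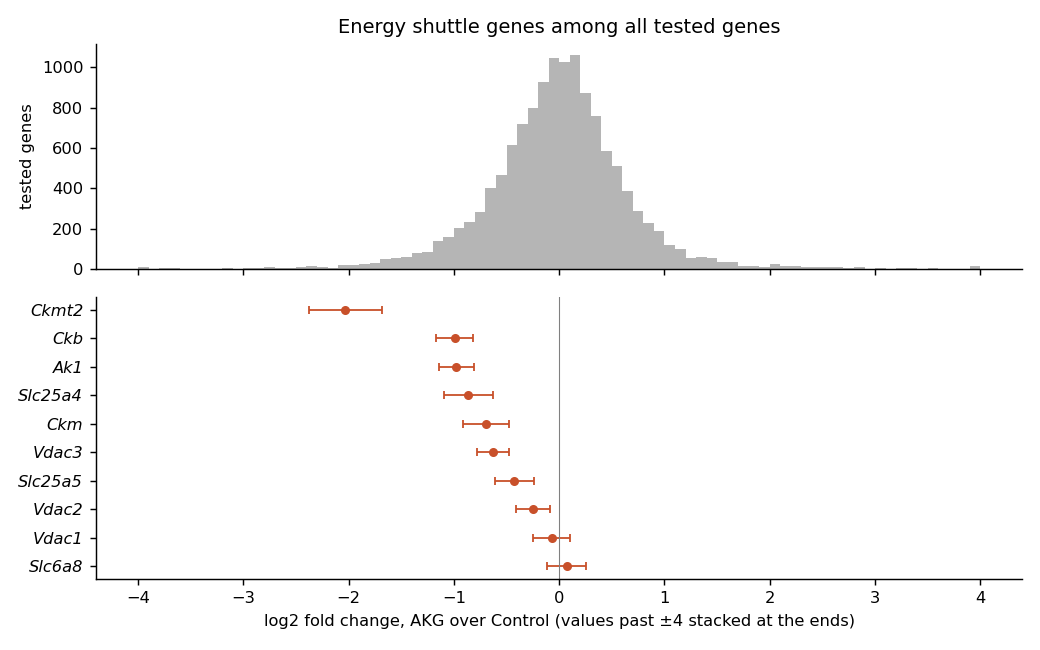
The upper panel is a histogram of the log2 fold changes (AKG over Control) of the 13117 tested genes, in bins of 0.1, and the lower panel gives the 10 shuttle genes on the same axis with 95% intervals. Ckmt2 lies in the far lower tail at -2.03, and the intervals of Vdac1 and Slc6a8 include 0.

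Ak1, the cytosolic adenylate kinase of muscle, stood at 153, 158 and 169.7 CPM in AKG and at 308, 309 and 328 CPM in Control. Every AKG library was at about the same distance below the Control libraries, and the fall was 1.97-fold (log2 fold change -0.98, SE 0.0775, edgeR quasi-likelihood adjusted p = 3.99e-07). Adenylate and AMP metabolism counted 7 lower and 3 higher genes among 18 tested, beside 25.2% lower and 25.0% higher of all tested genes, and its median log2 fold change was -0.10. Ak3, a mitochondrial matrix adenylate kinase gene, stood at 98.3 CPM in AKG and 102.6 CPM in Control and did not pass (edgeR quasi-likelihood adjusted p = 0.553). Among the 4 with the smallest p, the nucleoside diphosphate kinase genes Nme1, Nme2 and Nme3, whose products move phosphate between nucleotides, had log2 fold changes of -1.01, -0.56 and -1.22. Adk, adenosine kinase, fell to 34.7 ± 5.75 CPM in AKG, against 61.5 ± 4.28 CPM in Control. The 3 genes that rose were Nme4, Nme6 and Nt5c2, a cytosolic nucleotidase gene, with log2 fold changes of 0.90, 0.41 and 0.43. These 3 and Ak3 were chosen for mention after their values had been seen.

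Compared per length of transcript, as FPKM values of the deposited table, the order of the 10 genes shifted in the middle. In AKG the order ran Slc25a4 (1292 ± 149 FPKM), Ckm (689 ± 56.5), Ckmt2 (260.1 ± 44.9), Vdac1 (236 ± 24.2), Slc25a5 (231 ± 26.5), Vdac2 (189.6 ± 16.8), Vdac3 (132 ± 5.98), Ak1 (90.9 ± 8.1), Ckb (37.0 ± 2.6) and Slc6a8 (36.8 ± 2.53), all in FPKM as mean ± SD over 3 libraries. In Control it ran Slc25a4 (1729 ± 92.5 FPKM), Ckm (889 ± 83), Ckmt2 (783 ± 107), Slc25a5 (228 ± 9.76), Vdac1 (182 ± 12.8), Vdac2 (152 ± 2.69), Vdac3 (151 ± 5.91), Ak1 (132 ± 6.38), Ckb (54.3 ± 4.7) and Slc6a8 (26.6 ± 1.99). In AKG the ranges of Ckmt2, Vdac1 and Slc25a5 each overlapped with the next in order, and so did those of Ckb and Slc6a8, while Vdac2 stood apart from Vdac3. In Control only Ckm with Ckmt2, and Vdac2 with Vdac3, overlapped. Among all genes of the table, Slc25a4 ranked 28 in AKG and 25 in Control by mean FPKM, Ckm ranked 49 in AKG and 36 in Control, and Ckmt2 ranked 185 in AKG and 45 in Control.

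How much each gene fell depended on how the libraries were scaled. With total counts as the scaling the median over all genes moved to 0.445, against 0.0029 with TMM, and every shuttle gene moved upward by about the same amount. Then 5 of the 10 genes were lower and 2 higher, beside 9.12% of all tested genes lower and 56.7% higher (65.8% in all). Ckmt2 (-1.59), Ckb (-0.55), Ak1 (-0.53), Slc25a4 (-0.42) and Ckm (-0.25) remained lower in that fit. Slc6a8 (0.51, edgeR quasi-likelihood adjusted p = 0.000178) and Vdac1 (0.37, adjusted p = 0.00331) were then higher, Slc25a5 stood at 0.02 and Vdac3 (-0.19) and Vdac2 (0.19) did not pass. Limma on log2(FPKM + 1) likewise gave 6 of the 10 genes as lower and 3 as higher, beside 9.22% lower and 58.1% higher of all genes it tested (67.4% in all). DESeq2, with its own size factors, gave 8 lower and 0 higher, beside 23.2% and 23.1% of all tested genes (46.3% in all). The 13 mitochondrially encoded transcripts, the largest block of counts, took 30.1%, 31.4% and 25.7% of counts in AKG and 43.2%, 38.3% and 41.02% in Control. With these transcripts left out, TMM gave 8 lower and 0 higher, beside 3304 lower and 3273 higher of 13113 tested genes. The fit with total counts was not run without them, so their part in the shift between scalings was not tested. The 10 shuttle genes together took 0.517%, 0.596% and 0.609% of all counts in AKG and 0.701%, 0.763% and 0.797% in Control. The groups did not overlap, and the exact two-sided permutation p was 0.1, the smallest that 3 libraries against 3 can give.

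**Figure D3:**
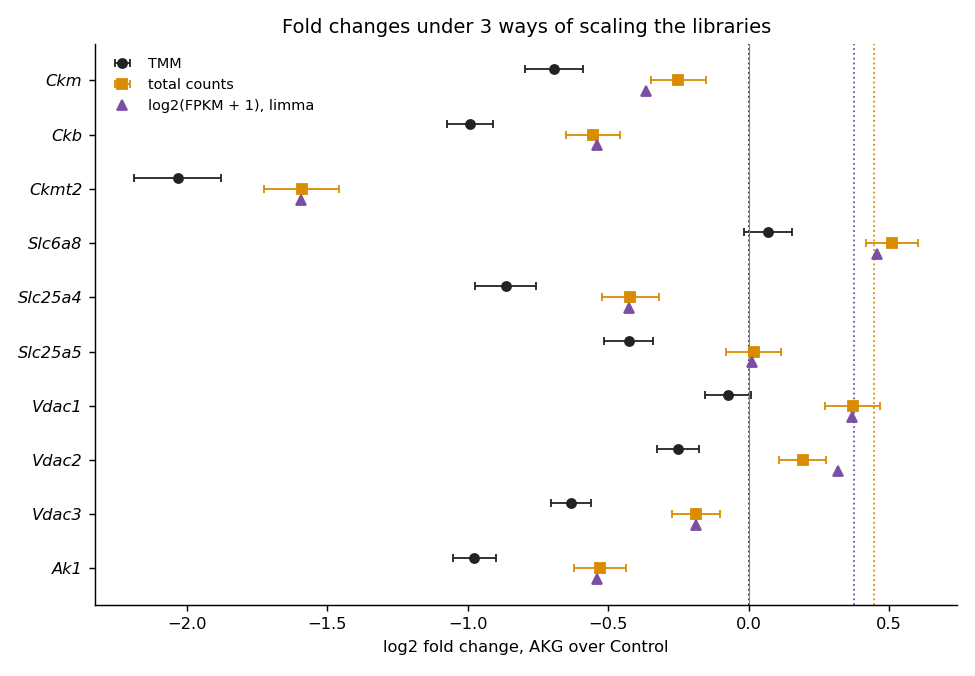
The log2 fold change (AKG over Control) of each gene is given under TMM scaling (circles), total counts (squares) and limma on log2(FPKM + 1) (triangles), with SE bars for the first 2; dotted lines mark the median of all tested genes under each. The order of the genes is similar under each scaling and all values move to the right with the median, so that Slc25a5, Vdac1 and Vdac2 cross 0.

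Ratios between genes of the same library do not depend on the scaling, and they showed that the make-up of the shuttle differed between the groups. Within the creatine kinases, Ckmt2 made 23.7%, 27.6% and 27.4% of the summed FPKM in AKG and 44.5%, 44.7% and 46.7% in Control. Ckm made 72.5%, 68.8% and 68.7% in AKG and 52.3%, 51.8% and 50.6% in Control. In the Control libraries the mitochondrial and the cytosolic muscle kinase were thus close to equal. The log2 ratio of Ckmt2 to Ckm was -0.19 ± 0.0621 in Control and -1.42 ± 0.168 in AKG (SD, n = 3 each). It differed by -1.23 (AKG minus Control) in FPKM and by -1.35 in counts. Ckb made 3.76 ± 0.152% of creatine kinase FPKM in AKG and 3.17 ± 0.387% in Control, a higher share at a lower level. The difference of 0.594 percentage points was 0.381 without Control 3. The log2 ratio of Ckb to Ckm differed by -0.19 (AKG minus Control) in FPKM, with overlapping groups, and by -0.30 in counts, without overlap. In FPKM it differed by -0.11 without Control 2.

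Slc25a5 made 15.3%, 14.7% and 15.5% of translocase FPKM in AKG and 12.25%, 12.01% and 10.75% in Control, so that the muscle form Slc25a4 kept 84.8 ± 0.416% in AKG and 88.3 ± 0.804% in Control. Among the VDAC genes, Vdac3 made 24.8%, 23.8% and 22.6% in AKG and 30.9%, 30.9% and 31.5% in Control. Vdac1 made 42.3 ± 1.55% in AKG and 37.6 ± 0.987% in Control. The ratio of Vdac1 to Slc25a4, outer membrane pore to inner membrane translocase, was higher by 0.80 on the log2 scale after AKG, and that of Slc25a4 to Ckmt2 by 1.17. The log2 ratio of Ak1 to Ckm differed by -0.18 in FPKM, with overlap, and by -0.29 in counts, without overlap. In FPKM it differed by -0.07 without AKG 2 and by -0.28 without AKG 3. Of 16 shares and ratios computed, the groups did not overlap for 13. Each of these 13 had an exact two-sided permutation p of 0.1, the smallest possible, and 0.123 after Benjamini-Hochberg adjustment over the 16, so none could pass a threshold of 0.05 in this design. The shares within a family are not independent of each other.

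**Figure D4:**
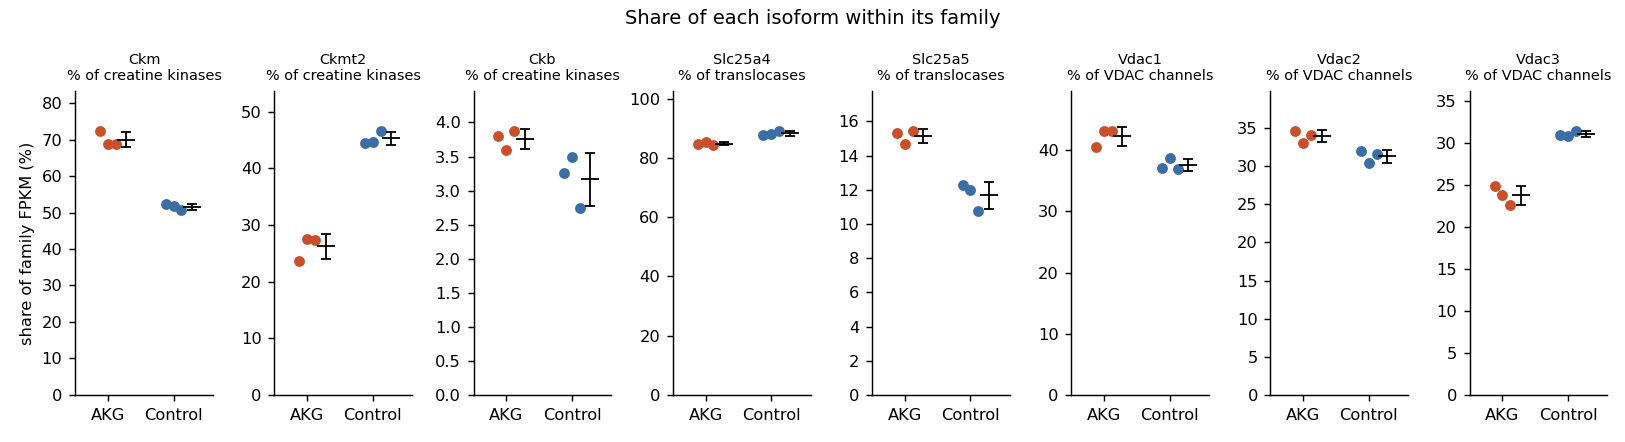
Each panel gives the share of 1 gene in the summed FPKM of its family, in percent on an axis from 0, with 1 point per library, AKG in red and Control in blue, and the mean ± SD beside them. The Ckmt2 share lies at 23.7% to 27.6% in AKG and at 44.5% to 46.7% in Control.

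In the authors' deposited table the log2 fold change of a gene came from group means of FPKM, and its significance was given separately. The authors' deposited table had 6 of the 10 genes with a false discovery rate under 0.05 and a log2 fold change below 0, beside 17.0% of all tested genes. For 3 shuttle genes, Vdac2, Slc25a5 and Vdac1, the deposited fold and the count fit pointed in opposite ways, Vdac1 without passing the threshold in either. The authors' deposited table gave Vdac2 a log2 fold change of 0.32 with a false discovery rate of 0.00357, and Slc25a5 one of 0.02 with a false discovery rate of 1.67e-05, while both fell in counts here. Vdac1 and Slc6a8 had 0.37 and 0.47 in the authors' deposited table, with false discovery rates of 0.593 and 0.646. By FPKM 6 of the 10 genes lay wholly below Control in AKG and 3 wholly above (Vdac1, Vdac2 and Slc6a8), beside 10.1% and 57.9% of all tested genes. For Vdac2 the FPKM per unit of CPM of total counts, which follows the effective transcript length, also differed between libraries, at 0.57, 0.526 and 0.6 in AKG and 0.512, 0.519 and 0.521 in Control. For Ckm this factor was 0.569, 0.584 and 0.537 in AKG and 0.619, 0.599 and 0.615 in Control. The difference on the log2 scale was 0.12 for Vdac2 and -0.12 for Ckm, larger in size than for 90.05% and 89.6% of 10467 genes with at least 50 counts in every library, and its cause was not tested. For Ckmt2 the factor was 0.673 in every library.

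The genes around the shuttle were taken from lists, and their counts stand beside 25.2% lower and 25.0% higher of all tested genes. ATP synthase, which makes the ATP that the translocases export, had 15 lower and 1 higher among 18 tested genes and a median log2 fold change of -0.99. Atp5e, Atp5g1, Atp5k and Atp5g3 had the smallest p, and Atp5g1, a subunit of the proton-driven ring, fell to 390 ± 34.6 CPM in AKG, against 1002.5 ± 80.3 CPM in Control. Atp5b, the catalytic beta subunit, stood at 3192 CPM in AKG and 3328 CPM in Control and did not pass (edgeR quasi-likelihood adjusted p = 0.641). The one that rose was Atpif1, the inhibitor of the enzyme, at 132 CPM in AKG and 112.5 CPM in Control (adjusted p = 0.0432), and no gene of the list was higher in 5 of 6 fits with a library left out. Among phosphate and ATP-Mg carriers and VDAC-binding partners, 8 of 15 tested genes were lower and 1 was higher (median -0.31). Hk2, the insulin-regulated hexokinase that docks on VDAC, fell to 50.8 ± 1.64 CPM in AKG, against 152 ± 2.37 CPM in Control (log2 fold change -1.58, edgeR quasi-likelihood adjusted p = 4.31e-09). Ppif (cyclophilin D, a regulator of the permeability transition), the coenzyme A carrier gene Slc25a42 and the phosphate carrier gene Slc25a3 had log2 fold changes of -0.86, -0.66 and -0.61. Slc25a24, an ATP-Mg carrier gene, rose by 0.72.

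On the side of ATP use, 5 of 11 genes were lower and 3 higher, beside 25.2% lower and 25.0% higher of all tested genes. The median log2 fold change of this list was -0.23. The sodium pump gene Atp1b1 fell to 126 ± 18.2 CPM in AKG, against 246 ± 8.88 CPM in Control (edgeR quasi-likelihood adjusted p = 3.17e-06). The calcium pump gene Atp2a2 stood at 2873 CPM in AKG and 4142 CPM in Control (edgeR quasi-likelihood adjusted p = 0.00171), and the myosin gene Myh6 at 12427 CPM in AKG and 27743 CPM in Control. Besides Myh7, the genes that rose were Slc8a1, a sodium-calcium exchanger that uses no ATP itself, and Abcc9, a subunit of the ATP-sensitive potassium channel that is also a pericyte marker. With total counts as the scaling, where 56.7% of all tested genes were higher and 9.12% lower, the ATP synthase list had 3 higher and 12 lower genes and ATP use 5 higher and 4 lower. In that fit the carrier and partner list had 7 higher and 2 lower, adenylate and AMP metabolism 9 higher and 4 lower, and creatine synthesis 0 of either. Atp5b, Atpif1, Slc25a24, Slc8a1, Abcc9 and Atp2a2 were named after their values had been seen.

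**Figure D5:**
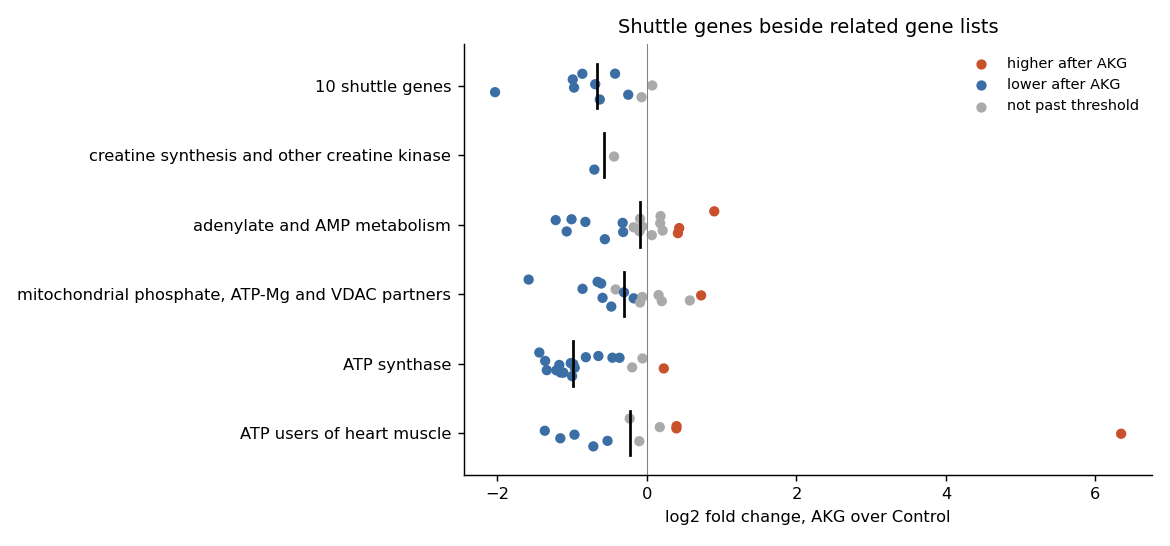
Each point is 1 tested gene at its log2 fold change (AKG over Control), by list, with the median as a vertical bar; red points rose, blue points fell and grey points did not pass the threshold. The medians are -0.66 for the 10 shuttle genes and -0.99 for ATP synthase, and Myh7 stands apart at 6.34.

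Patterns over the 6 libraries were compared among 8749 genes with a mean of at least 10 CPM and a value above 0 in every library, by the root mean square difference of log2 CPM after centring each gene. Closest to Ckm were Msra, a methionine sulfoxide reductase gene (difference 0.0387, r = 0.994), Gsta4, a glutathione transferase gene (0.0475), and Suclg1, a subunit of succinyl-CoA ligase (0.0479). Closest to Ckb were Nmnat1, an enzyme of NAD synthesis (0.043), Phyh, a peroxisomal hydroxylase gene (0.0485), and Rflnb, an actin-organising protein gene (0.0518). The 6 points fall into the 2 groups, so these values mainly describe a fold change of like size, and no p is given. Suclg1 stood at 183 ± 10.3 CPM in AKG and 308 ± 32.4 CPM in Control, and Phyh at 186 ± 12.4 CPM in AKG and 362 ± 10.2 CPM in Control.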

How the data were processed

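RNA sequencing libraries of isolated cardiomyocytes (3 AKG, 3 Control) were analysed from 1 deposited table of genes. The authors deposited estimated counts, held as whole numbers (in 60 cases a count of 0 had a positive FPKM, which rounding would give), FPKM values per library, group means of FPKM, their log2 ratio, and a p-value with a false discovery rate. Per the submitters' processing notes the tools included DESeq2 1.20.0, HISAT2 2.1.0 and RSEM 1.2.19, without roles. Genome build and annotation are not given in the sources used here.

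Counts were tested in R 4.3.3 with edgeR 4.0.16: filterByExpr (minimum count 10, minimum total 15), TMM scaling, robust quasi-likelihood test, Benjamini-Hochberg adjustment over 13117 genes. Each SE comes from the fold change and the F statistic, and 95% intervals use the t distribution on the fit's degrees of freedom. A floor of 3 counts was 0.167 to 0.221 CPM. The test was also run on simulated counts in which a small part of the genes changed, in both directions. That run does not check the choice of scaling. Shares and ratios used exact permutation tests (SciPy 1.17.1). Alternatives used DESeq2 1.42.0, limma 3.58.1, other scalings and filters, the replicate block and left-out libraries. The 10 genes and the lists were chosen with earlier results of these data known; the named list genes are the 4 with the smallest p per list, except where a result is not reported here. The 30 rows without a symbol held 3.95e-05% of counts. Reading frames (the longest per gene) were aligned with Biopython 1.88.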

Additional observations from a re-analysis of the deposited data

How the results depend on the processing

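Ckm, Ckb, Ckmt2, Slc25a4 and Ak1 kept their direction and their side of the threshold in all 19 alternatives, and 175 of 190 alternatives over the 10 genes did. Of the other 15, 13 came from other scalings or FPKM and 2 from leaving out libraries. With total counts Slc25a5, Vdac1 and Vdac2 turned to 0.018, 0.37 and 0.19, Slc6a8 passed at 0.51 and Vdac3 at -0.19 did not pass. Limma on log2(FPKM + 1) gave 0.012, 0.37, 0.32 and 0.46 for Slc25a5, Vdac1, Vdac2 and Slc6a8, and a pseudocount of 0.1 gave 0.012, 0.37, 0.32 and 0.47. Over all genes total counts gave 7431 higher and 1196 lower genes, and limma on FPKM 6732 and 1068 (pseudocount 1) or 6725 and 1067 (0.1), in place of 3281 and 3309 with TMM; these fits shift the median of all genes. With AKG 2 as the only AKG library Vdac2 stood at -0.19 and did not pass; with 1 library left out it ranged from -0.28 to -0.22, and passed except without Control 1. In counts in place of FPKM the log2 ratio of Vdac2 to Vdac1 differed by -0.18 in place of -0.05. Without mitochondrially encoded genes in the denominator the summed share of the 10 genes differed by -0.465 percentage points in place of -0.18. With total counts, higher genes numbered 9 (adenylate and AMP metabolism), 7 (carriers and partners), 3 (ATP synthase) and 5 (ATP use), and lower genes 4 in the first list, 2 in the second and 0 in creatine synthesis. With a library left out 1 to 2 carriers and partners and 0 to 1 ATP synthase genes were higher.

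Deviations from the group means of same-numbered libraries correlated at 0.161, -0.034 and 0.049, and those of differently numbered libraries at -0.119 to 0.067. The value of 0.161, for the libraries numbered 1, was the largest. With 3 libraries per group such values cannot show whether replicate numbers paired the libraries. With the replicate number as a block 3257 genes were higher and 3314 lower, 8 shuttle genes were lower and Vdac2 had an edgeR quasi-likelihood adjusted p of 0.0222; 2 carriers and partners were higher in place of 1, and no call of a shuttle gene changed. The shuttle genes had at least 771 counts in every library, and precision also rests on 3 libraries per group.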
